A study of Saccharomyces cerevisiae with 18 samples.

Results

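The yeast strain rad6P47T-3V5, in which threonine replaces proline 47 of the ubiquitin-conjugating enzyme Rad6, was set against a strain that lacks BRE1, the gene of a ubiquitin ligase that works with Rad6 (bre1Δ). The comparison used 6 of the 18 RNA-seq libraries of the series, 3 from each strain, chosen by their labels, and covered all 5746 genes of the count table. Cells of the P47T group carried rad6Δ::KanMX at the chromosomal locus and drew their Rad6 from a TRP CEN plasmid with the mutant, 3V5-tagged gene. Cells of the bre1Δ group carried bre1Δ::KanMX and the empty plasmid pRS314, also TRP CEN, and kept their own untagged chromosomal RAD6. The 3 libraries given as WT for context came from rad6Δ::KanMX cells with a plasmid of wild-type Rad6-3V5. All these strains are labelled Mat a with ura3-52, his3, trp1Δ and a leu2 allele, and were grown at 30 °C in synthetic medium that lacked tryptophan. The P47T and bre1Δ strains therefore differed in the source, tag and sequence of Rad6 and in the plasmid as well as in BRE1, and the parts of these differences in a result cannot be told apart. For each strain, 3 cultures were grown and sequenced separately as poly(A) RNA in stranded single reads. The protocols give different culture densities in different places, and which density each library had is not given in the sources used here.

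Rad6 takes ubiquitin from the E1 enzyme and attaches it to different proteins according to its ligase partner. With Bre1 it places a single ubiquitin on a lysine in the tail of histone H2B, a mark that is needed for methylation of histone H3 by Set1 and Dot1. With Ubr1 it marks proteins with destabilising N-terminal residues for the proteasome, including Cup9, the repressor of the peptide transporter gene PTR2. With Rad18 it modifies the sliding clamp PCNA at stalled replication forks. The mutation lies in what the series calls a backside beta-turn of Rad6.

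RAD6 (YGL058W) lies on chromosome VII and has 172 codons without the stop codon. Its codons 40 to 54 in the R64 reference, at chrVII:394103-394147 on the forward strand, are printed here because they hold the changed residue, with the codon of proline 47 (chrVII:394124-394126) in capitals. The plasmid's own sequence was not used here.
RAD6 codons 40 to 54: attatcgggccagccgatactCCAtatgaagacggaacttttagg

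The deleted and plasmid-borne genes were checked first. Values after ± are the SE for a log2 fold change and the SD over 3 libraries for a mean. BRE1 had 139, 143 and 140 CPM (counts scaled to the size of the library) in P47T libraries, against 2.12, 1.25 and 1.78 CPM in bre1Δ libraries. The groups are far apart, as their labels require, and the log2 fold change of P47T over bre1Δ was 6.38 ± 0.13 (adjusted p = 4.5e-20). WT libraries averaged 141 ± 5.67 CPM. RAD6 itself had 147, 162 and 177 CPM in P47T libraries, against 106, 104 and 93.4 CPM in bre1Δ libraries. It was higher in every P47T library, by 0.67 ± 0.09 on the log2 scale (adjusted p = 6.7e-06), and WT, which also drew RAD6 from a plasmid, averaged 149 ± 6.82 CPM. TRP1, the selectable gene of both plasmids, had 718, 631 and 698 CPM in P47T libraries and 236, 194 and 199 CPM in bre1Δ libraries, a log2 fold change of 1.70 ± 0.11 (adjusted p = 1.2e-10). WT averaged 565 ± 48 CPM of TRP1, so both plasmids that carry a RAD6 gene went with more TRP1 RNA than pRS314.

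Among the neighbours of the deleted loci, GEP7 had the largest difference. GEP7, whose product is mitochondrial, lies on the opposite strand to RAD6, with 461 bases between the stop-codon ends of both genes. It had 40.7, 41 and 41.4 CPM in P47T libraries and 15.8, 13.2 and 15.4 CPM in bre1Δ libraries. The log2 fold change was 1.48 ± 0.17 (adjusted p = 1.1e-06). GEP7 averaged 35.2 ± 5.66 CPM in WT and 12.6 ± 0.197 CPM in rad6Δ libraries, so it was low in both strains without a RAD6 plasmid. Whether reads from plasmid sequence around RAD6 were counted to GEP7 was not tested. PKP2, a mitochondrial protein kinase gene on the other side of RAD6, had 148, 145 and 163 CPM in P47T libraries against 175, 164 and 149 CPM in bre1Δ libraries and was not called (log2 fold change −0.10 ± 0.08, adjusted p = 0.32). Next to BRE1, the small nucleolar RNA SNR63 was not called (log2 fold change 0.08 ± 0.16, adjusted p = 0.73). AHK1, a scaffold gene of the osmostress pathway on the other side of BRE1, had 36.4, 40.7 and 35 CPM in P47T libraries and 42, 51.6 and 47.8 CPM in bre1Δ libraries and was lower by a log2 fold change of −0.34 ± 0.10 (adjusted p = 0.0094). That call was lost without the third replicate of each strain and without bre1Δ replicate 2.

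The libraries held 7233934 to 11396251 counts in P47T and 5654417 to 8720793 in bre1Δ, so 1 count was worth well under 1 CPM in each. In a principal component analysis of all 18 libraries, P47T lay at −14.1 to −12.7 and bre1Δ at 13.4 to 15.7 on the first component, which held 40.7% of the variance. Replicate 3 of both strains stood apart on the second component (15%), at 3.71 against 9.96 and 12.4 in P47T, and at 11.2 against −3.68 and 0.308 in bre1Δ. The strains are labelled Mat a, yet the summed level of 6 a-cell markers was 38.5 to 39.8 CPM in P47T and 38.0 to 43.3 CPM in bre1Δ, and that of 5 alpha-cell markers 2334 to 2888 CPM in P47T and 1864 to 2144 CPM in bre1Δ. The transcripts of both groups thus go against the label in the same way.

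Of 5630 genes with enough counts to test, 2309 (41.0%) differed between P47T and bre1Δ at an adjusted p under 0.05 in edgeR's quasi-likelihood test, and these are referred to as called. Of the tested genes, 1130 (20.1%) were higher in P47T and 1179 (20.9%) were lower. Most of the differences were small: 1481 of the called genes (64.1%) differed by less than 0.5 on the log2 scale. The median log2 fold change over all tested genes was −0.0018. Differences of at least 2-fold were uneven in direction, with 35 genes higher and 187 lower in P47T. The 187 lower genes were mostly weakly transcribed, and 110 of them averaged under 10 CPM even in the group where they were higher. Their median level in that group was 7.68 CPM, against 79.3 CPM for the 35 higher genes. The 3 values of P47T and the 3 of bre1Δ did not overlap for 2521 genes (44.8%), including 2056 of the called genes (89.0%). In the same fit, 1569 genes (27.9%) differed between P47T and WT and 2501 (44.4%) between bre1Δ and WT. These counts share the WT libraries. That of P47T against WT dropped to 959 without P47T replicate 1 and to 1017 without P47T replicate 2.

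**Figure D1:**
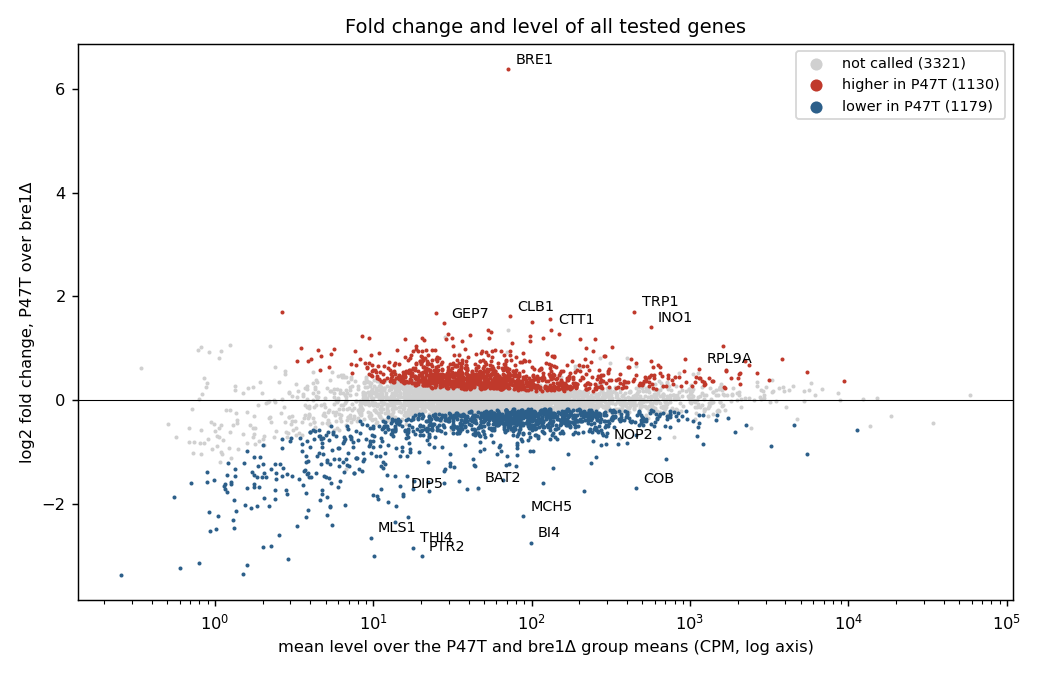
Each point is a tested gene, with its mean level over the P47T and bre1Δ group means in CPM on a log axis and its log2 fold change of P47T over bre1Δ. Red points (1130) are called higher and blue points (1179) called lower in P47T. BRE1 lies far above all others, and the blue points below −1 gather at low levels.

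Of the called genes with a symbol of their own that averaged at least 10 CPM in 1 of the strains and whose values did not overlap, the 12 with the highest and the 12 with the lowest fold change were named. Among the highest, after BRE1 and TRP1, HO, CLB1, PRY1 and FMP48 led. HO, the mating-type switching endonuclease, had 41.7, 40.8 and 30.5 CPM in P47T libraries against 8.76, 12.9 and 14 CPM in bre1Δ libraries (log2 fold change 1.68 ± 0.14, adjusted p = 8.6e-09). PRY1, a secreted sterol-binding protein, had 202, 197 and 188 CPM in P47T libraries against 67.1, 61.1 and 71.5 CPM in bre1Δ libraries (log2 fold change 1.56 ± 0.10). FMP48, a protein kinase, had 152, 143 and 149 CPM in P47T libraries against 55.3, 53.8 and 47 CPM in bre1Δ libraries (log2 fold change 1.5 ± 0.09). That the values of the groups do not overlap in these 3 genes follows from the naming rule. NRG1 and NRG2, related zinc-finger repressors of glucose-repressed genes, both rose in P47T: NRG1 averaged 76.2 ± 11.9 CPM in P47T and 29.8 ± 4.51 CPM in bre1Δ, with a log2 fold change of 1.35 ± 0.12. NRG2 averaged 79.3 ± 6.09 CPM in P47T and 31.7 ± 8.6 CPM in bre1Δ, with a log2 fold change of 1.31 ± 0.16. WT averaged 15.9 ± 1.58 CPM for HO, 46.8 ± 2.46 for NRG1 and 45.8 ± 7.24 for NRG2, close to bre1Δ for HO and between the strains for the others. The WT means of PRY1 (148 ± 9.64 CPM) and FMP48 (102 ± 12.4 CPM) lay closer to P47T.

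At the other end stood PTR2, THI4, MLS1 and MCH5, described with their pathways, and a handful of others. SDD1 and DPA10 averaged 2.67 ± 0.76 and 4.37 ± 0.374 CPM in P47T against 10.6 ± 1.41 and 15.5 ± 1.62 CPM in bre1Δ, with log2 fold changes of −2.02 ± 0.27 and −1.84 ± 0.19. PIR5, a cell wall protein of the PIR family, averaged 6.63 ± 1.29 CPM in P47T against 24.4 ± 2.14 CPM in bre1Δ (log2 fold change −1.86 ± 0.16). The small nucleolar RNAs SNR77 and SNR56, which guide chemical modification of ribosomal RNA, had log2 fold changes of −2.35 ± 0.45 and −1.96 ± 0.30. Small nucleolar RNAs carry no stable poly(A) tail, so how faithfully poly(A) libraries sample them is uncertain. Of 76 tested rows of small nucleolar and small nuclear RNAs, 5 were higher and 20 lower, with a median log2 fold change of −0.13. These are 6.58% and 26.3% of the rows, against 20.1% and 20.9% of all tested genes. Nuclear noncoding RNAs as a class took 16.9 to 19.2% of counts in P47T libraries and 17.7 to 21.9% in bre1Δ libraries, and their part in these results was not tested beyond the fit without them.

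**Figure D2:**
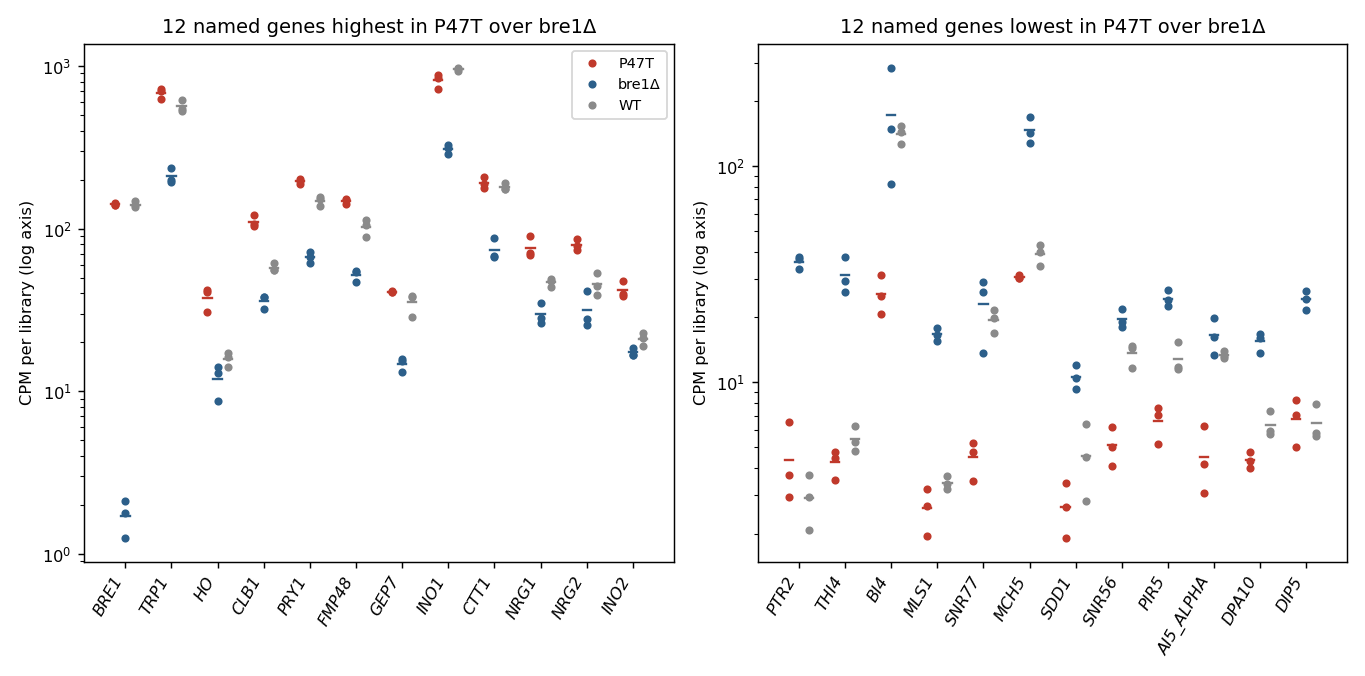
Points are CPM in single libraries on a log axis and bars are group means, for P47T (red), bre1Δ (blue) and WT (grey), in the 12 named genes with the highest (left) and the lowest (right) log2 fold change of P47T over bre1Δ. The 24 genes were chosen so that the 3 red and 3 blue points do not overlap. Grey points fall with or next to red ones in INO1, CTT1, PTR2, THI4 and MLS1, and next to blue ones in HO.

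Most genes of inositol and phospholipid synthesis were higher in P47T. Yeast switches these genes on, when inositol is scarce, through the activator pair Ino2 and Ino4 and off through the repressor Opi1. Of 26 tested members of a list of such genes, 18 were higher and 1 was lower in P47T, with a median log2 fold change of 0.52, against −0.0018 over all tested genes. INO1, which makes inositol phosphate from glucose phosphate in the first committed step, had 886, 840 and 725 CPM in P47T libraries against 288, 312 and 328 CPM in bre1Δ libraries, a log2 fold change of 1.40 ± 0.10 (adjusted p = 6.0e-10). The inositol transporter gene ITR1 had 2176, 2176 and 2195 CPM in P47T libraries against 976, 1109 and 1102 CPM in bre1Δ libraries (1.04 ± 0.08, adjusted p = 5.0e-09). Both groups were tight and far apart in these genes. PSD1, the mitochondrial phosphatidylserine decarboxylase, averaged 178 ± 5.82 CPM in P47T and 98.7 ± 10.7 CPM in bre1Δ (log2 fold change 0.85 ± 0.07), and CHO1, phosphatidylserine synthase, averaged 715 ± 30.8 and 460 ± 55.3 CPM in the same order of strains (0.64 ± 0.09). The regulators moved too: INO2 had 47.5, 39.7 and 38.4 CPM in P47T libraries against 16.8, 18.5 and 16.8 CPM in bre1Δ libraries (1.27 ± 0.11), and OPI1 had 154, 149 and 152 against 99.1, 83.8 and 96.6 CPM (0.71 ± 0.08). The member that was lower was GIT1, a transporter of glycerophosphoinositol (log2 fold change −0.63 ± 0.23, adjusted p = 0.031), a call lost in 6 of 14 alternatives, among them those without replicate 1 or 3 of either strain.

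WT libraries averaged 955 ± 21.4 CPM for INO1, 2120 ± 61.5 for ITR1 and 191 ± 7.46 for PSD1, close to the P47T values, but 21.1 ± 1.98 CPM for INO2, close to the bre1Δ value. Against WT, the list had 6 members higher and 1 lower in P47T, and 2 higher and 15 lower in bre1Δ, with medians of 0.13 and −0.35 on the log2 scale. Both counts use the same WT libraries.

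Ino2 and Ino4 bind an element whose core is CATGTG. This word, read on both strands, was found in the 300 bases before the coding start of 14 of the 26 members (53.8%), against 6.91% of the 5514 windows of tested nuclear genes. Of the 14 members with a match, 13 were higher and none lower in P47T, with a median log2 fold change of 0.65. Of the 12 without a match, 5 were higher and 1 lower, with a median of 0.19. Over all windows, 27.6% of the genes with a match and 19.8% of those without were higher in P47T. A match is a description of the letters and not evidence of a bound site. The windows of INO1 (chrX:135934-136233, reverse strand) and ITR1 (chrIV:1445468-1445767, reverse strand) are shown because these genes had the lowest adjusted p of the list, each in R64, on the gene's strand, with matches to CATGTG or its reverse complement in capitals. In INO1 the matches start 243 and 178 bases before the coding start, and in ITR1 282 and 221 bases before it.
INO1: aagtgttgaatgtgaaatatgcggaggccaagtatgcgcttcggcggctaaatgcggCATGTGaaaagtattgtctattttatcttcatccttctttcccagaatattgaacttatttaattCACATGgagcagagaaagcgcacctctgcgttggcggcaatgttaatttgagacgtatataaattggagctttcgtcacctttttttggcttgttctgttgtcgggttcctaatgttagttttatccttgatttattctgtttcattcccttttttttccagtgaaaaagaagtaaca
ITR1: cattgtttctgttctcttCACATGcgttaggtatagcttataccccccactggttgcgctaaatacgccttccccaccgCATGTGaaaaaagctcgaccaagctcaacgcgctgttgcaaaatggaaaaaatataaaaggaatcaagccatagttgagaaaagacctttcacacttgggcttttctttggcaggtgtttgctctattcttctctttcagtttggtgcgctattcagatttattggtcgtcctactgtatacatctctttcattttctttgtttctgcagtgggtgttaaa

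Ergosterol synthesis, the yeast counterpart of cholesterol synthesis, was also higher for many members. In a list of 38 ergosterol and anaerobic sterol-uptake genes, 17 were higher and 6 lower in P47T (median log2 fold change 0.16). ERG5, a sterol desaturase, had 119, 107 and 82.4 CPM in P47T libraries against 43.3, 44.6 and 57.3 CPM in bre1Δ libraries (1.11 ± 0.15, adjusted p = 1.4e-05). ERG25, ERG3 and ERG8, which act at the methyl-oxidation, desaturation and mevalonate-phosphorylation steps, had log2 fold changes of 0.60 ± 0.09, 0.65 ± 0.10 and 0.64 ± 0.09. The lower members included the sterol importers of anaerobic cells PDR11 (−0.97 ± 0.13) and AUS1 (−0.64 ± 0.09) and the hypoxic regulator SUT1 (−0.94 ± 0.14). WT averaged 57.2 ± 6.09 CPM for ERG5 and 214 ± 7.64 CPM for ERG25, close to bre1Δ.

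Among called genes with a symbol of their own that averaged at least 10 CPM in 1 of the strains and whose values did not overlap, the lowest fold change belonged to a peptide importer. PTR2, the di- and tripeptide transporter whose repressor Cup9 is a target of Rad6 and Ubr1, had 3.72, 6.53 and 2.94 CPM in P47T libraries against 33.2, 37.8 and 37.3 CPM in bre1Δ libraries. The log2 fold change was −3.02 ± 0.20 (adjusted p = 1.8e-10), and WT averaged 2.93 ± 0.84 CPM, just under the lowest P47T value. The RNA of CUP9 was not called, with 52.4, 53.1 and 58.5 CPM in P47T libraries against 65.4, 49.3 and 50.7 CPM in bre1Δ libraries (−0.02 ± 0.10, adjusted p = 0.9). UBR1 had 223, 215 and 199 CPM in P47T libraries against 232, 263 and 250 CPM in bre1Δ libraries and was lower by −0.23 ± 0.08 (adjusted p = 0.029), a call lost in 7 of 14 alternatives. The oligopeptide transporter gene OPT2 had 25.2, 25.8 and 25.5 CPM in P47T libraries and 61.6, 61.1 and 59.8 CPM in bre1Δ libraries (−1.26 ± 0.09, adjusted p = 9.1e-10). SSY5, a protease of the amino acid sensor at the plasma membrane, was higher (0.39 ± 0.09). In the whole list of 18 N-degron and peptide-import genes 2 were higher and 6 lower, so 44.4% were called, against 41.0% of all tested genes. The split was 1 and 3 without the third replicate of each strain. It was 1 and 3 also without P47T replicate 2 or P47T replicate 3 alone, and 1 and 4 without bre1Δ replicate 3.

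Most genes of B-vitamin synthesis that differed were lower in P47T. Of 26 tested genes for thiamine and pyridoxine synthesis and transport, 1 was higher and 16 were lower, with a median log2 fold change of −0.49. THI4, which makes the thiazole part of thiamine, had 4.77, 3.54 and 4.48 CPM in P47T libraries against 26.1, 29.3 and 38.1 CPM in bre1Δ libraries (−2.85 ± 0.16, adjusted p = 2.3e-11). SNZ1 and SNO1, a neighbouring pair of pyridoxine genes, had 47.7, 46.2 and 46.3 and 14.1, 13.5 and 12.6 CPM in P47T libraries, against 107, 119 and 112 and 31.8, 28.1 and 33.4 CPM in bre1Δ libraries. Their log2 fold changes were −1.27 ± 0.07 and −1.2 ± 0.11. THI2, a regulator of the pathway, and THI73, a plasma membrane permease, fell by a similar size (−1.05 ± 0.08 and −1.14 ± 0.12). MCH5, the riboflavin transporter gene, was not in the list and had 31.3, 30.4 and 30.4 CPM in P47T libraries against 128, 142 and 168 CPM in bre1Δ libraries (−2.24 ± 0.09, adjusted p = 1.3e-13). WT averaged 5.46 ± 0.753 CPM for THI4, 57.3 ± 2.35 for SNZ1 and 39.1 ± 4.36 for MCH5, nearer to P47T in each. Against WT, 3 list members were higher and 3 lower in P47T, and 17 were higher and 1 lower in bre1Δ, from the same WT libraries.

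Many genes that glucose represses were lower in P47T. In a list of 36 genes of the glyoxylate cycle, gluconeogenesis and fatty acid β-oxidation, 3 were higher and 19 lower (median log2 fold change −0.33). MLS1, malate synthase of the glyoxylate cycle, had 2.67, 3.21 and 1.96 CPM in P47T libraries against 16.5, 17.9 and 15.6 CPM in bre1Δ libraries (−2.65 ± 0.18, adjusted p = 2.1e-10). ADR1 and CAT8, the transcription factors that switch on this metabolism, had log2 fold changes of −0.98 ± 0.08 and −0.80 ± 0.10. ADR1 had 68, 74.4 and 62.4 CPM in P47T libraries, against 128, 133 and 144 CPM in bre1Δ libraries. MDH2, the cytosolic malate dehydrogenase, fell by a log2 fold change of −0.69 ± 0.07, and REG2, a subunit of the glucose-repression phosphatase, by one of −1.5 ± 0.19. CIT2, the peroxisomal citrate synthase and a target of mitochondrial retrograde signalling, moved the other way, with 213, 228 and 192 CPM in P47T libraries against 75.6, 88.9 and 99.5 CPM in bre1Δ libraries (1.27 ± 0.11, adjusted p = 3.1e-08). For CIT2, WT averaged 109 ± 10.1 CPM, close to bre1Δ, and for MLS1 3.43 ± 0.256 CPM, close to P47T.

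Hexose transport had no member higher and 8 of 19 tested members lower (median −0.34). So 42.1% were called, close to the 41.0% of all tested genes. In a fit of the 6 libraries alone, which left fewer members to test, 4 of 16 were lower. Most of these transporters were barely transcribed: HXT10 had 0.477, 0.111 and 0.14 CPM in P47T libraries against 2.54, 3.19 and 2.57 CPM in bre1Δ libraries (−3.35 ± 0.49, adjusted p = 1.6e-05). MIG3, a glucose-responsive repressor, and SNF3, the sensor of low glucose, were lower by −0.65 ± 0.13 and −0.37 ± 0.08. HXT2, a transporter for low glucose, had 211, 183 and 173 CPM in P47T libraries and 207, 293 and 333 CPM in bre1Δ libraries (−0.55 ± 0.17, adjusted p = 0.014), a call lost without replicate 3 of either strain and without bre1Δ replicate 2. In glycolysis and fermentation, 3 of 25 genes were higher and 4 lower, but 7 higher and 2 lower without the third replicate of each strain, 6 and 2 without bre1Δ replicate 3 alone, and 3 and 2 without P47T replicate 3 alone. The split went the other way, to 0 and 4, without P47T replicate 1, and was 1 and 4 without bre1Δ replicate 1, 1 and 3 without P47T replicate 2 and 1 and 2 without bre1Δ replicate 2, so the list had no stable direction. PDC6, a minor pyruvate decarboxylase, was lower under all 14 alternatives, with 2.2, 1.33 and 1.82 CPM in P47T libraries against 9.05, 8.55 and 7.5 CPM in bre1Δ libraries (−2.22 ± 0.25, adjusted p = 5.1e-07). In the galactose list of 11 genes 1 was higher and 5 lower, or 3 lower without P47T replicate 2 or bre1Δ replicate 3. GAL4, its activator gene, had 9.64, 8.96 and 10.1 CPM in P47T libraries against 22.2, 20.1 and 17.8 CPM in bre1Δ libraries (−1.08 ± 0.13), with the limit that it overlaps a noncoding gene in the annotation.

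Many genes of meiosis and spore formation, a programme that is largely off in dividing cells, were lower in P47T than in bre1Δ. Of 63 tested members, 4 were higher and 34 lower, and the median log2 fold change was −0.57. The higher count was 2 without P47T replicate 1 or 2 or bre1Δ replicate 2 or 3. A further 8 genes of the list were in the table but had too few counts to test. PES4, an RNA-binding protein of sporulation, had 1.62, 2.21 and 2.66 CPM in P47T libraries against 9.47, 9.69 and 6.52 CPM in bre1Δ libraries (−2.04 ± 0.21, adjusted p = 2.0e-07). REC8, the cohesin subunit of meiotic chromosomes, had 6.59, 6.97 and 8.54 CPM in P47T libraries against 23.7, 18.2 and 18 CPM in bre1Δ libraries (−1.46 ± 0.15, adjusted p = 2.6e-07). SPO74 and SPO75, spore formation genes, had log2 fold changes of −2.43 ± 0.26 and −3.07 ± 0.38. SPO75 had 0.573, 0.442 and 0.84 CPM in P47T libraries and 6.08, 4.67 and 4.74 CPM in bre1Δ libraries. SPS1, a kinase of spore wall formation, had 2.29, 1.99 and 1.96 CPM in P47T libraries and 7.49, 7.64 and 7.11 CPM in bre1Δ libraries (−1.82 ± 0.23). The values are low in both groups. The groups do not overlap in any of these genes, as in 89.0% of all called genes. WT averaged 9.95 ± 0.401 CPM for REC8 and 2.32 ± 0.273 CPM for SPS1, close to P47T. In bulk cultures, fewer cells of a kind and less RNA per cell cannot be told apart.

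Most genes of ribosome biogenesis were lower in P47T. Among 101 genes for ribosomal RNA processing and ribosome assembly, 4 were higher and 61 lower in P47T, with a median log2 fold change of −0.32 and a range from −0.92 to 0.46. The higher count was 2 without P47T replicate 1 or bre1Δ replicate 1. NOP2, a ribosomal RNA methyltransferase, had 209, 210 and 217 CPM in P47T libraries against 364, 404 and 376 CPM in bre1Δ libraries (−0.85 ± 0.08, adjusted p = 6.6e-08). NOP12, an RNA-binding protein of early assembly, averaged 107 ± 7.65 CPM in P47T and 173 ± 2.73 CPM in bre1Δ (−0.70 ± 0.08), and HAS1, an RNA helicase, averaged 153 ± 9.72 and 238 ± 8.08 CPM in the same order (−0.64 ± 0.08). RPF2, ESF1 and BRX1, further assembly factors, had log2 fold changes of −0.68 ± 0.09, −0.61 ± 0.09 and −0.55 ± 0.08. WT averaged 229 ± 14.1 CPM for NOP2, 99.8 ± 8.13 for NOP12 and 149 ± 7.61 for HAS1, close to P47T. Against WT, the list had 35 members higher and 2 lower in P47T (median 0.18), and 80 higher and none lower in bre1Δ (median 0.51), with the WT libraries shared.

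The sequence elements PAC and RRPE, known from genes of ribosome synthesis, were frequent before these genes. GCGATGAG, the PAC element, was found on either strand of the 300-base window in 56 of the 101 (55.4%), against 4.37% of all windows, and AAAATTTT, a form of the RRPE element, in 76 (75.2%), against 9.88%. Among members with GCGATGAG, 35 were lower and 3 higher, and among the 45 without it 26 were lower and 1 higher. Outside the lists of ribosome biogenesis and of RNA polymerases I and III, 178 tested genes held GCGATGAG in the window: 36.0% of them were lower and 10.7% higher, against 19.4% lower and 21% higher among the 5199 without it. The window of NOP2 (chrXIV:510240-510539 in R64, forward strand) is shown because NOP2 had the lowest adjusted p of the list, with AAAATTTT and CTCATCGC, the reverse complement of GCGATGAG, in capitals. They start 142 and 131 bases before the coding start.
NOP2: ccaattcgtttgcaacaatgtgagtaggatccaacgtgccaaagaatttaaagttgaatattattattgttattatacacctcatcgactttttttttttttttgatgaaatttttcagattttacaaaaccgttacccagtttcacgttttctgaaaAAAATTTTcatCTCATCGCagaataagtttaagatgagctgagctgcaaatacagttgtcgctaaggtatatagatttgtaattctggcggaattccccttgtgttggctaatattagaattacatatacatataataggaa

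Most genes for the proteins of the ribosome were not called. For the large subunit 16 of 81 were higher and none lower (median 0.15), so 19.8% were called, and for the small subunit 15 of 57 were higher and 1 lower (median 0.10), so 28.1% were called, against 41.0% of all tested genes. The share of large-subunit genes that were higher is that of all tested genes (20.1%). RPL8A, a large-subunit protein gene, had 681, 670 and 645 CPM in P47T libraries against 407, 451 and 571 CPM in bre1Δ libraries (0.48 ± 0.10, adjusted p = 6.9e-04). RPS9A, a small-subunit protein gene, had 220, 226 and 227 CPM in P47T libraries against 141, 156 and 163 CPM in bre1Δ libraries (0.55 ± 0.08, adjusted p = 1.6e-05). RPS14B was the member that was lower, with 104, 99 and 119 CPM in P47T libraries and 178, 143 and 177 CPM in bre1Δ libraries (−0.63 ± 0.10), while its paralog RPS14A was higher (0.44 ± 0.09). Most of these genes exist as near-identical pairs, and how the authors' counting treated reads that match both is not given in the sources used here. bre1Δ replicate 3 was the closest to P47T for RPL8A. The large-subunit count was 35 higher and 1 lower without bre1Δ replicate 3, 14 and 2 without P47T replicate 3, 10 and 1 without bre1Δ replicate 2, 10 and 0 without P47T replicate 1, 25 and 2 with DESeq2, and 26 and 0 with library totals as the scale. The small-subunit count was 24 higher without bre1Δ replicate 3, 9 without bre1Δ replicate 1, and 8 without P47T replicate 1 or bre1Δ replicate 2, and 2 members were lower without P47T replicate 3. Translation factors had 2 of 38 higher and 14 lower, so 42.1% were called, close to the 41.0% of all tested genes. Their higher count was 4 without bre1Δ replicate 3 and 0 without any 1 of P47T replicates 1 and 2 and bre1Δ replicates 1 and 2. SUP35, the translation release factor, had 475, 497 and 457 CPM in P47T libraries and 603, 682 and 682 CPM in bre1Δ libraries (−0.46 ± 0.08). RNA polymerases I and III had 7 of 36 higher and 10 lower, so 47.2% were called. The split was 4 and 8 without bre1Δ replicate 3. RPC40, a subunit of both polymerases, was at −0.64 ± 0.08 on the log2 scale.

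**Figure D3:**
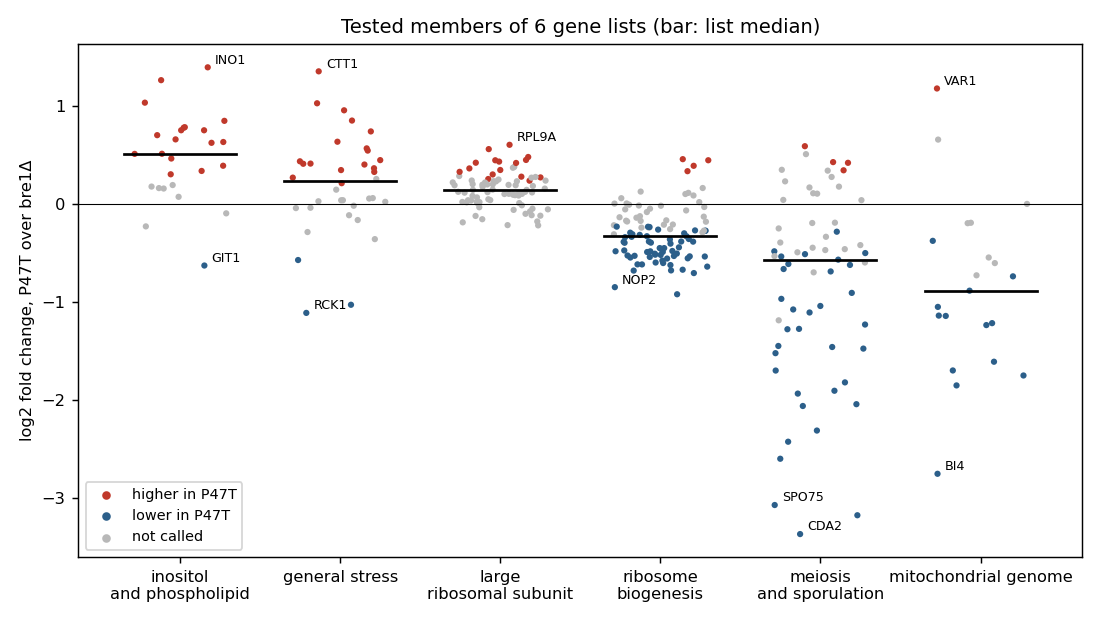
Each point is a tested member of 1 of 6 gene lists, at its log2 fold change of P47T over bre1Δ, in red where called higher, blue where called lower and grey where not called, with the list median as a bar. The inositol and stress members lie mostly above 0, those of ribosome biogenesis mostly below it in a narrow band, and those of meiosis and the mitochondrial genome spread down to −3.37 and −2.75.

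More general stress genes were higher than lower in P47T. In a list of 36 genes that the stress activators Msn2 and Msn4 are known to control, 18 were higher and 3 lower, with a median log2 fold change of 0.24. CTT1, the cytosolic catalase, had 187, 178 and 206 CPM in P47T libraries against 87.9, 67.6 and 66.7 CPM in bre1Δ libraries (1.36 ± 0.09, adjusted p = 4.8e-10). GPD1, which makes the osmolyte precursor glycerol phosphate, had 380, 372 and 370 CPM in P47T libraries against 193, 203 and 224 CPM in bre1Δ libraries (0.86 ± 0.07, adjusted p = 3.8e-09). MSC1, a stress-induced gene of poorly known role, had 441, 386 and 461 CPM in P47T libraries against 220, 213 and 197 CPM in bre1Δ libraries (1.03 ± 0.09, adjusted p = 1.3e-08). The groups do not overlap in these genes, as in 89.0% of all called genes. ALD3, an aldehyde dehydrogenase, RTN2, a reticulon of the endoplasmic reticulum, and GRE3, an aldose reductase, had log2 fold changes of 0.96 ± 0.13, 0.74 ± 0.11 and 0.45 ± 0.07. HSP12, a small membrane-protecting protein and a classical stress gene, was lower (222 ± 11.9 CPM in P47T and 330 ± 36.2 CPM in bre1Δ, −0.57 ± 0.10), as was the kinase gene RCK1 (−1.11 ± 0.17). WT averaged 180 ± 8.59 CPM for CTT1, 323 ± 2.54 for GPD1 and 496 ± 32.1 for MSC1, closer to P47T than to bre1Δ. Against the shared WT libraries, 1 member was higher and 14 lower in P47T (median −0.22), and 2 were higher and 25 lower in bre1Δ (median −0.47).

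The stress element CCCCT was found on either strand before 31 of the 36 genes (86.1%), against 22.5% of all windows, and 16 of these 31 were higher and 1 lower. Over all windows the word went with no clear direction: 21.5% of the genes with it and 20.1% of those without were higher, and 20.6% and 20.8% were lower. The window of MSC1 (chrXIII:16677-16976 in R64, reverse strand) is shown as an example among the 3 members with the lowest adjusted p, with AGGGG, the reverse complement of CCCCT, in capitals, at 202 and 132 bases before the coding start.
MSC1: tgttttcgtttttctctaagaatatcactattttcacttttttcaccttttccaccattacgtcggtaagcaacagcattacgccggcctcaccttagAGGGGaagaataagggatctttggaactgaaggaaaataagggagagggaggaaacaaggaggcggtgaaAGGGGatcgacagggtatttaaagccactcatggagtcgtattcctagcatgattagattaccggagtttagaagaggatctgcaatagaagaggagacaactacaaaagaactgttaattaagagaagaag

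Trehalose and glycogen synthesis had 6 of 20 members higher and 1 lower (median 0.08), so 35% were called, against 41.0% of all tested genes. Against the shared WT libraries, 0 members were higher and 13 lower in P47T (median −0.37). In bre1Δ, 0 were higher and 17 lower than in WT (median −0.51). TPS1 and TPS2, which make trehalose, had 650, 598 and 603 and 981, 882 and 918 CPM in P47T libraries, against 480, 494 and 474 and 655, 687 and 713 CPM in bre1Δ libraries, with log2 fold changes of 0.35 ± 0.07 and 0.44 ± 0.08. PGM2 and UGP1, which feed glucose into both stores, were higher by 0.53 ± 0.09 and 0.39 ± 0.08, while GLG2, a glycogen primer, was lower (−0.57 ± 0.13).

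More cell cycle genes were higher than lower in P47T. Of 52 genes of the G1/S wave, which the factors SBF and MBF switch on, 24 were higher and 3 lower (median 0.23). RNR1, the large subunit of ribonucleotide reductase, had 179, 173 and 136 CPM in P47T libraries against 74.5, 86.8 and 104 CPM in bre1Δ libraries (0.89 ± 0.10, adjusted p = 1.3e-06). POL12, a subunit of DNA polymerase α, and POL30, the gene of PCNA, had log2 fold changes of 0.75 ± 0.11 and 0.56 ± 0.09. CLN2, a G1 cyclin, had 38.4, 41.8 and 40.7 CPM in P47T libraries against 26.7, 26.8 and 30.2 CPM in bre1Δ libraries (0.54 ± 0.09). WHI5, the inhibitor of SBF, was higher (0.94 ± 0.15), and SVS1, a cell wall protein gene of the same wave, was lower (−0.60 ± 0.10). Of 34 genes of the G2/M and M/G1 waves, 13 were higher and 2 lower (median 0.18). Of the G1/S list 51.9% were called and of this list 44.1%, against 41.0% of all tested genes (20.1% higher, 20.9% lower). CLB1, a mitotic cyclin, had 107, 120 and 104 CPM in P47T libraries against 32.1, 37.7 and 38.1 CPM in bre1Δ libraries (1.62 ± 0.09, adjusted p = 3.2e-11). CDC5, the polo kinase, had 83.1, 94.4 and 75.6 CPM in P47T libraries against 44.8, 44.8 and 41.5 CPM in bre1Δ libraries (0.95 ± 0.08), and HST3, a histone deacetylase, was higher by 1.2 ± 0.11. WT averaged 92.1 ± 1.26 CPM for RNR1, close to bre1Δ, and 57.6 ± 2.95 for CLB1 and 57.2 ± 1.28 for CDC5, between the strains. Shares of cells in each phase were not measured.

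In a list of 11 histone genes, 4 were higher and none lower, so 36.4% were called, against 41.0% of all tested genes. The list held the core genes with the variants HTZ1 and CSE4 and the linker histone HHO1. H2B is the one of them that Bre1 and Rad6 modify. HTB2, the second H2B gene, had 266, 274 and 284 CPM in P47T libraries against 161, 172 and 190 CPM in bre1Δ libraries (0.66 ± 0.09, adjusted p = 3.7e-06), whereas HTB1, the other H2B gene, was not called (0.09 ± 0.08, adjusted p = 0.38). HTA1 had 649, 544 and 494 CPM in P47T libraries against 339, 310 and 381 CPM in bre1Δ libraries (0.72 ± 0.11). HTA2 had 290, 217 and 170 CPM in P47T libraries against 101, 132 and 172 CPM in bre1Δ libraries, so its lowest P47T value lay under its highest bre1Δ value, and its call (0.75 ± 0.21, adjusted p = 0.012) was lost without P47T replicate 1 or bre1Δ replicate 1. HHT1, an H3 gene (0.38 ± 0.11), lost its call without P47T replicate 1, which left 2 of the 11 called higher. Without P47T replicate 3, 2 members were lower, and without bre1Δ replicate 3, 1 was. Each core histone has a pair of genes near-identical in their coding parts, and poly(A) selection recovers their RNA as far as it is polyadenylated.

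In the H2B ubiquitination and H3 methylation list of 25 genes, 8 were higher, with BRE1 and RAD6 among them, and 5 lower. Of this list 52% were called, against 41.0% of all tested genes. SWD1 and SWD3, subunits of the Set1 methyltransferase complex, had 50.5, 46.7 and 47.5 and 37.4, 34.8 and 36.8 CPM in P47T libraries, against 26.7, 28.4 and 31 and 26.9, 22.2 and 24.3 CPM in bre1Δ libraries (0.76 ± 0.09 and 0.58 ± 0.10). PAF1 was higher (0.35 ± 0.09), though not called without the third replicate of each strain, and CTR9, another subunit of the PAF complex that H2B ubiquitination needs, was lower (−0.40 ± 0.10), as was POB3 of the histone chaperone FACT (−0.43 ± 0.11). The lower count was 3 without P47T replicate 3 and 2 without bre1Δ replicate 2. Among 48 other chromatin genes 12 were higher and 8 lower, so 41.7% were called, close to the share of all tested genes. The counts were 7 and 5 without the third replicate of each strain. They were 14 and 5 without bre1Δ replicate 2. SET2, the H3 methyltransferase of transcribed genes, had 82.5, 87.1 and 79.5 CPM in P47T libraries against 47.6, 58.2 and 47.2 CPM in bre1Δ libraries (0.69 ± 0.08, adjusted p = 1.7e-06). SPN1, an elongation factor, had 92.6, 86.2 and 104 CPM in P47T libraries against 155, 151 and 129 CPM in bre1Δ libraries (−0.63 ± 0.09).

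More mating genes were higher than lower in P47T. Of 48 tested pheromone-response and haploid-specific genes, 20 were higher and 10 lower (median 0.23), or 17 and 6 without P47T replicate 1. FAR1, which arrests the cell cycle in response to pheromone, had 137, 148 and 118 CPM in P47T libraries against 57, 63.5 and 63.4 CPM in bre1Δ libraries (1.13 ± 0.09, adjusted p = 2.9e-09). SAG1, the alpha-agglutinin, had 384, 386 and 338 CPM in P47T libraries against 207, 205 and 206 CPM in bre1Δ libraries (0.84 ± 0.09). GPA1, the G protein α subunit, and AXL1, a protease that processes a-factor, were higher by 0.66 ± 0.08 and 0.55 ± 0.07. PRM5, a cell wall stress and pheromone gene, had 41.5, 36.3 and 39.9 CPM in P47T libraries against 82.7, 74.6 and 86.3 CPM in bre1Δ libraries (−1.04 ± 0.09). WT averaged 89.6 ± 0.304 CPM for FAR1, 359 ± 18.9 for SAG1 and 41.7 ± 1.84 for PRM5.

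Of 28 tested rows of the mitochondrial genome, 14 were lower and 2 higher in P47T, with a median log2 fold change of −0.66. Mitochondrial genes took 1.0, 1.2 and 1.1% of counts in P47T libraries, against 1.8, 2.4 and 1.6% in bre1Δ libraries, with no overlap. Of the 21 among them in the list, which leaves some rows out, 1 was higher and 13 lower (median −0.88), with none higher without P47T replicate 1, bre1Δ replicate 1 or bre1Δ replicate 2. COX1, a core subunit of cytochrome oxidase, had 483, 507 and 336 CPM in P47T libraries against 880, 1082 and 964 CPM in bre1Δ libraries (−1.14 ± 0.19, adjusted p = 1.7e-04). BI4, an intron maturase of COB, had 25.1, 31.2 and 20.6 CPM in P47T libraries against 148, 285 and 82.7 CPM in bre1Δ libraries (−2.75 ± 0.55, adjusted p = 0.0016), and its bre1Δ values spread more than those of most genes. AI2 and AI5_ALPHA, read in the introns of COX1, had log2 fold changes of −0.88 ± 0.12 and −1.85 ± 0.23. SCEI, the homing endonuclease of the ribosomal RNA intron, had 48.5, 70.6 and 57.1 CPM in P47T libraries and 160, 193 and 184 CPM in bre1Δ libraries (−1.61 ± 0.21). The intron genes overlap their host genes, so reads of one cannot be separated from reads of the other, and poly(A) selection samples yeast mitochondrial RNA poorly. WT averaged 753 ± 31.5 CPM for COX1 and 140 ± 13.5 CPM for BI4, closer to bre1Δ.

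Nuclear genes for the respiratory chain had 4 of 41 members higher and 11 lower (median −0.12), with 2 higher without P47T replicate 3, bre1Δ replicate 2 or bre1Δ replicate 3. Called were 36.6% of them, 42.9% of TCA cycle genes and 27.1% of mitochondrial ribosomal protein genes, against 41.0% of all tested genes. COX26, a small cytochrome oxidase subunit, had 43.1, 41.6 and 50.5 CPM in P47T libraries against 110, 85.4 and 90.6 CPM in bre1Δ libraries (−1.09 ± 0.13, adjusted p = 1.4e-06). CYC1, cytochrome c, and the ATP synthase subunits ATP14 and ATP16 were lower by −0.49 ± 0.08, −0.49 ± 0.08 and −0.38 ± 0.06. The TCA cycle had 5 of 21 higher and 4 lower, led by IDP1, a mitochondrial isocitrate dehydrogenase, with 539, 493 and 477 CPM in P47T libraries against 304, 319 and 345 CPM in bre1Δ libraries (0.64 ± 0.08). Without the third replicate of each strain the split was 5 and 0, it was 5 and 1 without P47T replicate 2, P47T replicate 3 or bre1Δ replicate 3, and 5 and 2 without bre1Δ replicate 2. Mitochondrial ribosomal proteins had 13 of 70 higher and 6 lower, but 8 higher and 14 lower without the third replicate of each strain and 10 higher and 12 lower without P47T replicate 3 alone. Their direction as a group therefore rests on those libraries.

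Cell wall genes had 7 of 51 members higher and 14 lower (median −0.14). Called were 41.2% of them and 35.7% of the chaperone list, against 41.0% of all tested genes. GSC2, the glucan synthase subunit induced by wall stress, had 122, 117 and 96.2 CPM in P47T libraries against 182, 247 and 260 CPM in bre1Δ libraries (−1.04 ± 0.14, adjusted p = 1.1e-05). CRH1, a cross-linking transglycosylase, PST1, a wall protein, YPS3, an aspartic protease, and SLT2, the kinase of the cell wall integrity pathway, were lower by −0.74 ± 0.10, −0.68 ± 0.10, −0.67 ± 0.10 and −0.44 ± 0.07. The split was 15 higher and 10 lower without the third replicate of each strain, and 11 and 12 without bre1Δ replicate 3 alone, while the calls of these 5 genes held. Chaperones had 5 of 42 higher and 10 lower, or 8 and 9 without the third replicate of each strain. CPR6, a partner of Hsp90, had 163, 165 and 169 CPM in P47T libraries against 252, 240 and 270 CPM in bre1Δ libraries (−0.61 ± 0.08), ZUO1, a ribosome-bound chaperone, was lower by −0.51 ± 0.07, and BTN2, a sorting factor for aggregates, was higher (0.94 ± 0.13).

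More genes under nitrogen catabolite repression were lower than higher in P47T, while amino acid synthesis had no stable direction. Among 33 genes under nitrogen catabolite repression, 5 were higher and 13 lower (median −0.16). Of these 54.55% were called, and of amino acid synthesis genes 46.9%, against 41.0% of all tested genes. BAT2, the cytosolic branched-chain aminotransferase, had the lowest adjusted p of the list, with 20.4, 22.5 and 21.8 CPM in P47T libraries against 73.4, 64.8 and 70.5 CPM in bre1Δ libraries (−1.69 ± 0.09, adjusted p = 4.3e-12). GLN1, glutamine synthetase, had 863, 897 and 844 CPM in P47T libraries against 1436, 1604 and 1646 CPM in bre1Δ libraries (−0.85 ± 0.09). GDH3, a glutamate dehydrogenase, and CAR1, arginase, were lower by −0.91 ± 0.12 and −0.72 ± 0.11, and PUT2 of proline use was higher (0.44 ± 0.08). The higher count was 3 without P47T replicate 1, bre1Δ replicate 1 or bre1Δ replicate 2. Amino acid synthesis had 16 of 64 higher and 14 lower. ARO10 and ARO9, which break down aromatic amino acids, had 166, 175 and 147 and 185, 185 and 152 CPM in P47T libraries, against 62.6, 73.3 and 79.4 and 81.8, 96.5 and 111 CPM in bre1Δ libraries (1.19 ± 0.09 and 0.86 ± 0.10). SER3 and SER33, isozymes of serine synthesis, were lower by −0.68 ± 0.08 and −0.48 ± 0.08, with SER3 overlapping the regulatory transcript SRG1. The split was 23 and 8 without the third replicate of each strain, 19 and 9 without P47T replicate 3, 20 and 9 without bre1Δ replicate 3, and turned to 13 and 15 without P47T replicate 1, 12 and 17 without bre1Δ replicate 1 and 11 and 13 without bre1Δ replicate 2.

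Amino acid permeases had 4 of 20 higher and 6 lower. Of these 50% were called, of sulfur and methionine genes 55.6% and of purine and one-carbon genes 48.3%, against 41.0% of all tested genes. DIP5, for glutamate and aspartate, had 7.06, 8.29 and 5.04 CPM in P47T libraries against 21.6, 26.6 and 24.3 CPM in bre1Δ libraries (−1.81 ± 0.16, adjusted p = 1.1e-08). GNP1, for glutamine, had 107, 98.7 and 77.4 CPM in P47T libraries against 41.1, 56.8 and 58.2 CPM in bre1Δ libraries (0.87 ± 0.13). MUP1, the high-affinity methionine permease, was higher (0.94 ± 0.15) and MUP3, the low-affinity one, lower (−0.79 ± 0.15). The split was 5 higher and 2 lower without P47T replicate 3 and 5 and 4 without bre1Δ replicate 3. Sulfur and methionine genes had 8 of 36 higher and 12 lower, or 9 and 8 without the third replicate of each strain. SAM2, S-adenosylmethionine synthetase, had 792, 804 and 731 CPM in P47T libraries against 441, 484 and 529 CPM in bre1Δ libraries (0.68 ± 0.08), while MET5 and MET10 of sulfite reductase were lower by −0.53 ± 0.09 and −0.52 ± 0.07. Purine and one-carbon genes had 5 of 29 higher and 9 lower, or 4 and 14 without bre1Δ replicate 1 and 3 and 10 without P47T replicate 1. MTD1, a folate dehydrogenase, had 152, 140 and 193 CPM in P47T libraries against 355, 341 and 345 CPM in bre1Δ libraries (−1.11 ± 0.11, adjusted p = 6.3e-08). IMD2, the inducible IMP dehydrogenase of guanine nucleotide synthesis, had 21, 20.6 and 13.9 CPM in P47T libraries against 39.6, 50.4 and 48.2 CPM in bre1Δ libraries (−1.30 ± 0.13, adjusted p = 6.5e-08). ADE17 and ADE1 were lower by −0.83 ± 0.09 and −0.59 ± 0.08. WT averaged 353 ± 20.3 CPM for MTD1 and 553 ± 23.8 for ADE17, close to bre1Δ, but 16.7 ± 1.05 for IMD2 and 20.6 ± 1.15 for BAT2, close to P47T.

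Metal and phosphate regulons differed in direction. Iron uptake and use had 12 of 31 tested members higher and 2 lower (median 0.11). Of this list 45.2% were called, of zinc genes 55% and of phosphate genes 53.6%, against 41.0% of all tested genes. FET3 and FTR1, the oxidase and permease of high-affinity iron uptake, had 1202, 1208 and 1101 and 270, 269 and 242 CPM in P47T libraries, against 670, 627 and 737 and 132, 166 and 196 CPM in bre1Δ libraries (0.79 ± 0.08 and 0.66 ± 0.10). HMX1, a haem oxygenase, was lower (−0.87 ± 0.10). Zinc genes had 8 of 20 higher and 3 lower (median 0.15), or 5 higher without P47T replicate 1, P47T replicate 2 or bre1Δ replicate 2. ZRT1, the high-affinity zinc transporter gene, had 2133, 2138 and 1965 CPM in P47T libraries against 1505, 1454 and 1682 CPM in bre1Δ libraries (0.43 ± 0.10). IZH2, of zinc and lipid homeostasis, was higher by 0.69 ± 0.10. Phosphate genes had 4 of 28 higher and 11 lower (median −0.14), with 2 higher without P47T replicate 2 or bre1Δ replicate 2. PHO5, the secreted acid phosphatase, had 20.5, 20.1 and 16 CPM in P47T libraries against 35.6, 33.7 and 37.3 CPM in bre1Δ libraries (−0.90 ± 0.10, adjusted p = 1.0e-06). PHO84, the phosphate transporter gene, was near the floor, with 0.764, 0.774 and 0.98 CPM in P47T libraries against 1.98, 3.08 and 2.96 CPM in bre1Δ libraries (−1.68 ± 0.38), and overlaps an antisense noncoding gene, whose reads may have been counted with it. VIP1, an inositol pyrophosphate kinase, was lower by −0.62 ± 0.07.

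DNA damage and repair genes had 6 of 43 higher and 12 lower. Called were 41.9% of them, 37.5% of proteasome genes, 20% of ubiquitin enzymes and 52.6% of subtelomeric families, against 41.0% of all tested genes. HUG1, a damage-induced inhibitor of ribonucleotide reductase, had 1.34, 0.995 and 1.54 CPM in P47T libraries against 6.93, 4.79 and 7.11 CPM in bre1Δ libraries (−2.25 ± 0.28, adjusted p = 2.4e-06), and RNR3, the damage-inducible large subunit, had 12.4, 10.4 and 10.4 CPM in P47T libraries against 14, 17.2 and 18.2 CPM in bre1Δ libraries (−0.56 ± 0.14, adjusted p = 0.0027). Both had 3 and 3 values that did not overlap, as did 89.0% of all called genes. Their WT means were 1.34 ± 0.0396 and 8.75 ± 1.23 CPM. The checkpoint genes RAD9 and RAD17 moved apart (−0.64 ± 0.09 and 0.69 ± 0.10). Proteasome genes had 11 of 48 higher and 7 lower, with UFD1 of ubiquitin-dependent extraction at 0.48 ± 0.07 and the lid subunit RPN5 at −0.48 ± 0.09. The lower count was 3 without P47T replicate 1 and 4 without bre1Δ replicate 2. Ubiquitin enzymes had 3 of 35 higher and 4 lower, with UFD2, a ubiquitin chain elongation factor, at −0.42 ± 0.06. The split was 7 and 7 without bre1Δ replicate 3, and 3 and 8 without bre1Δ replicate 1. Subtelomeric families, whose members share sequence, had 11 of 38 tested members higher and 9 lower. AAD10, an aryl-alcohol dehydrogenase gene, had 15.9, 14.4 and 16.5 CPM in P47T libraries against 37, 40.6 and 43.4 CPM in bre1Δ libraries (−1.37 ± 0.11), and COS8 of the COS family was higher by 0.73 ± 0.09.

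**Figure D4:**
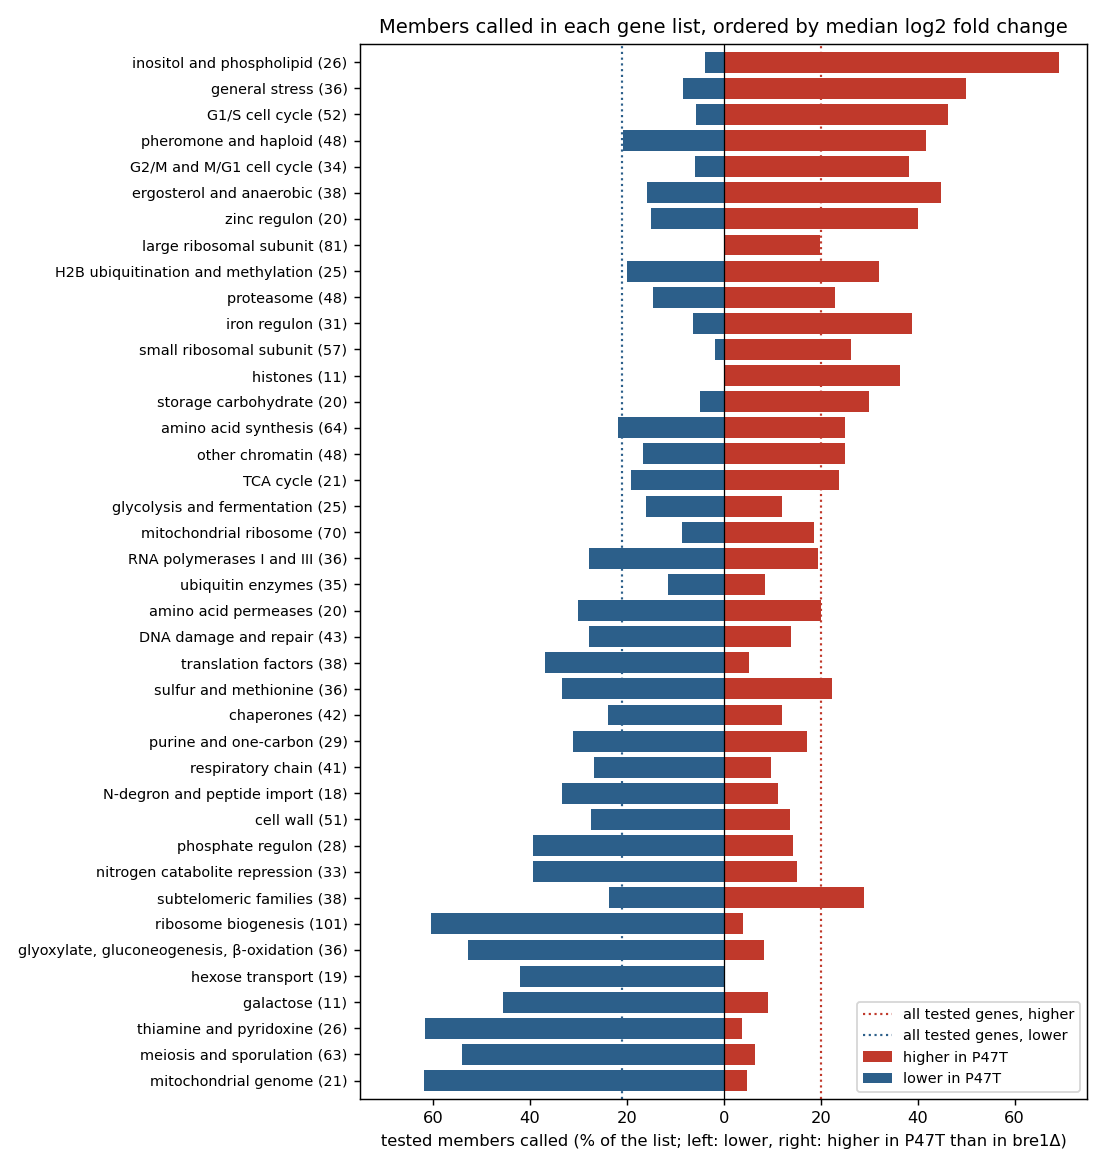
Bars give the share of each list's tested members (their number in parentheses) called higher (red, right) or lower (blue, left) in P47T than in bre1Δ, in percent, with lists ordered by median log2 fold change and dotted lines for all tested genes (20.1% and 20.9%). Inositol and phospholipid genes stand at the top with 18 of 26 higher, and ribosome biogenesis, thiamine, meiosis and mitochondrial genome lists have the longest blue bars.

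Length and level of a gene went with its direction. When tested nuclear genes were ranked by length and divided into 5 bins of equal size, 18.9, 23.0, 26.3, 21.3 and 12.3% were higher in P47T from the shortest to the longest, and 15.5, 16.6, 20.1, 24.0 and 27.5% were lower. The bin of longest genes thus held more lower than higher calls. Ranked by mean level, the lowest bin had 14.2% higher and 25.3% lower, the next 27.3% and 13%, and the highest 18.1% and 22.7%. Part of any list's count may go with these properties, which was not tested. Within 20 kb of a chromosome end, 33 of 135 genes were higher and 33 lower, so neither direction prevailed there. Chromosome medians ran from −0.09 (I) to 0.04 (VII) on the log2 scale.

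**Figure D5:**
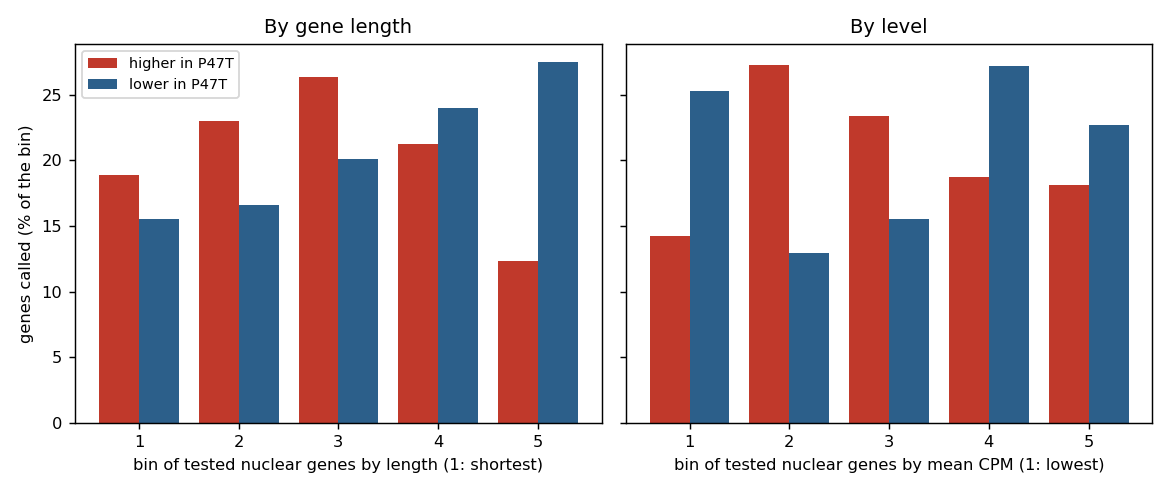
Bars give the share of tested nuclear genes called higher (red) or lower (blue) in P47T than in bre1Δ, in percent, for 5 bins of genes by length (left) and by mean CPM over all strains (right). The share of lower calls grows with length, from 15.5% to 27.5%, and the share of higher calls is lowest, 12.3%, in the bin of longest genes.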

How the data were processed

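Poly(A) RNA of 18 libraries, 3 for each of 6 strains, was sequenced in stranded single reads. The authors deposited raw counts per gene, made, per the submitters' processing notes, with cutadapt 1.16, STAR 2.6.1b and featureCounts 1.6.3 on the builds sacCer3 and R64. How strand and multiply mapped reads were counted is not given in the sources used here, so paralogs, overlapping genes and antisense pairs are uncertain. The authors also deposited regularized log2 values, for which the notes name DESeq2 1.20, and these served only to check that columns match.

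Tests on the counts used edgeR 4.0.16 (R 4.3.3): filterByExpr left 5630 of 5746 genes, TMM factors ran from 0.896 to 1.07, and robust quasi-likelihood tests in a fit of all 18 libraries (biological coefficient of variation 8.55% on 12 residual degrees of freedom) were adjusted by the Benjamini-Hochberg method over all tested genes, with a threshold of 0.05. CPM use TMM-scaled library sizes. Library totals ran from 5065845 to 11396251 counts, and 3 counts were worth 0.263 to 0.592 CPM. Annotation and sequence came from RefSeq R64: 5633 gene IDs were matched by locus tag, 90 by symbol and 23 not.

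Named genes are RAD6, BRE1, TRP1 and their neighbours, a fixed set of pathway genes, the 12 highest and 12 lowest fold changes among called genes with a symbol of their own whose values did not overlap and whose higher mean reached 10 CPM (1780 genes qualified), and up to 6 called members of each list with the lowest adjusted p. GIT1, SUT1, HSP12, RCK1, PAF1 and CTR9 were named after their values were seen, as were the genes marked in a figure. The members and lists were chosen with earlier results of these data known. Alternatives were RLE scaling, library totals, no filter, DESeq2 1.42.0, the 6 libraries alone, the replicate number as a block, no noncoding genes, each replicate left out and, chosen after seeing the data, replicate 3 of both strains left out.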

Additional observations from a re-analysis of the deposited data

How the results depend on the processing

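Called genes between P47T and bre1Δ numbered 2309, and 1808 to 2200 with any 1 replicate of the 2 strains left out, 1708 with the 6 libraries alone, 2277 with DESeq2, 2302 with RLE scaling, 2053 with library totals and 2313 without a filter. Without replicate 3 of both strains, 2108 were called, 1770 of them among the 2309. Genes of at least 2-fold numbered 202 to 257 over these settings, against 222. Of 251 genes named by the rule, 231 stayed on their side of the threshold under all 14 alternatives, and none reversed. Most of the 251 were chosen for a low adjusted p or an extreme fold change, so this does not describe calls in general. Of all 2309 calls, 1745 were kept without bre1Δ replicate 2 and 1701 with the 6 libraries alone. Of the 6 named after their values were seen, GIT1 lost its call in 6 alternatives and PAF1 in 1. For P47T against WT, the count of 1569 ran from 959 to 1596 with a replicate left out. With library totals as the scale, the split of P47T against WT was 407 higher and 1297 lower, and that of bre1Δ against WT 734 and 1699, with medians of all genes at −0.13 and −0.11 on the log2 scale. The cause was not tested. Same-numbered replicates of P47T and bre1Δ correlated at −0.31, 0.22 and −0.41 in their deviations from the group means, so the numbers were not taken as pairs. With the replicate number as a block, 2214 genes were called (1079 higher, 1135 lower), 2198 of them among the 2309. Genes under about 1 CPM rest on few counts, and their fold changes are imprecise.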
